A study of Mus musculus with 19 samples.

Results

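The Schlafen genes analysed here are Slfn1, Slfn2, Slfn3, Slfn4, Slfn5, Slfn8 and Slfn9, 7 of the 24210 named genes in a count table of 33862 RefSeq accessions. The genes were listed by name, and the accession of each was chosen by its mean count over all 19 libraries (the highest was kept), a value that uses no difference between groups. The family itself was chosen with earlier results of these data known, so its counts of called members and its medians are descriptions. Of the 7, 6 had enough reads to be tested, and Slfn4 did not. RNA came from uncultured lin-Sca+cKit+ cells of C57BL/6 mice, a sorted population that holds blood stem cells and their first descendants. Wild-type (WT) mice, with no treatment, gave 4 libraries. Mice with leukemia that carried Idh2 R140Q and Flt3-ITD gave 3 libraries after vehicle (IDH2-FLT3 vehicle) and 4 after AG-221, an inhibitor of mutant IDH2 given by gavage for 4 to 5 weeks at 100 mg/kg as a single agent or 40 mg/kg in combination, with the dose of each library not stated. Mice with leukemia that lacked Tet2 and carried the Flt3 allele (Tet2-/-;Flt3-IDT as the labels spell it) gave 4 libraries after vehicle (TET2-FLT3 vehicle) and 4 after 5-Aza, a hypomethylating drug injected at 5 mg/kg on 5 days of every 21 for 4 cycles. All leukemic groups share a Flt3 allele that WT lacks, and the labels do not name a Cre or say that each library came from a separate animal, so each p-value reflects spread among libraries, which may be technical.

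Schlafen proteins share an N-terminal core domain that binds RNA, and several members cleave or protect transfer RNA. The family is named after the German word for sleep, because Slfn1 was found as a gene that holds thymocytes in a resting state, and loss of Slfn2 function costs T cells and monocytes their quiescence. Slfn1 and Slfn2 are short proteins, Slfn3 and Slfn4 are of intermediate length, and Slfn5, Slfn8 and Slfn9 are long proteins with a helicase-like C-terminal part. Several members are induced by type I interferon in immune cells.

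The genes lie side by side on chromosome 11, in the order Slfn5, Slfn9, Slfn8, Slfn10-ps, Slfn2, Slfn1, Slfn4 and Slfn3 in RefSeq's GRCm38.p6 annotation. RefSeq promoters, from 250 bases before to 50 bases after the start site, were matched for all 7 genes, and none of the words shown was held by all 7. The short and intermediate genes held a shared 9-base word, shown here in capitals in windows on the + strand because Slfn1 and Slfn2, which both rose in TET2-FLT3 vehicle, are among them. The word was picked after the sequences were compared, and on its other strand it holds GGAA, the core letters that factors of the ETS family bind.
Slfn1: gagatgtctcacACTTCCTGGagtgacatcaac
Slfn2: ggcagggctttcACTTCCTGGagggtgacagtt
Slfn4: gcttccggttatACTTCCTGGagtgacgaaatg
Slfn3: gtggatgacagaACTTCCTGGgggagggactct
These windows are chr11:83116734-83116766, chr11:83065045-83065077, chr11:83175101-83175133 and chr11:83191276-83191308 (GRCm38.p6), and the word starts 74, 55, 73 and 42 bases before the start site. It was found, on either strand, in 0.843% of all 32851 promoters of the same length and in none of the promoters of Slfn5, Slfn8, Slfn9, Slfn14 or Slfnl1.

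The long genes instead held GAAANNGAA, the core of the interferon-stimulated response element, on one strand or the other. The matches are shown in capitals because the interferon-induced genes are compared with the family further on.
Slfn5: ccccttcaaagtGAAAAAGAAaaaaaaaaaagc
Slfn5: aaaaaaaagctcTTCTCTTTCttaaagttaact
Slfn8: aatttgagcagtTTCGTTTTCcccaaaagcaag
Slfn9: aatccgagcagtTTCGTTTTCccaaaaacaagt
The windows of Slfn5 are chr11:82951935-82951967 and chr11:82951958-82951990 (+ strand), with matches 155 and 132 bases before the start site and the first match inside a run of A. Those of Slfn8, chr11:83020837-83020869, and Slfn9, chr11:82991854-82991886, are on the - strand, and the match of Slfn9 lies 44 bases before the start site. Slfn8 has 2 listed start sites, and its match lies 47 bases before one and 135 before the other. The core was present in 8.56% of all promoters, and none of Slfn1, Slfn2, Slfn3 and Slfn4 held it. The gamma-activated site TTCNNNGAA, found in 8.3% of promoters, was in none of the 7 genes, and the PU.1 core GAGGAA, found in 28.3%, was in Slfn9 alone of the 7. Promoters of Slfn8 and Slfn9 were 80.8% identical, at 252 of 312 aligned positions. A match is a string of letters and not a shown binding site.

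Each library had 9635795 to 20383132 assigned counts. Levels are CPM (counts scaled to a common total, here the assigned counts multiplied by the TMM factor of the library), given as mean ± SD, and differences are log2 fold changes ± standard error from edgeR's quasi-likelihood test of all 11830 accessions that passed the filter, with Benjamini-Hochberg adjustment over all of them. "Rose" and "fell" are kept for genes with an adjusted p under 0.05. Where all libraries of a group lie above or below those of another, the share of all accessions that do so was not computed. Libraries are named as in the deposited table without their prefixes. Cell type markers differed in level between the sorted groups. The 12 stem cell markers summed to 1004 to 1509 CPM in WT and 86.69 to 196.5 CPM in IDH2-FLT3 vehicle, while the 8 granulocyte-monocyte progenitor markers summed to 2184 to 12880 CPM and 19940 to 104000 CPM. In such bulk samples, fewer cells of a type and less RNA per cell cannot be told apart. Vehicle libraries V3-2 and V5-2 stood apart from the others of their groups for Slfn3. Their headers share a number with V3 and V5, and whether they are repeat libraries of the same mice is not stated. Results for Slfn3, and others where stated, are given with and without both.

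Per length, Slfn2 was the most abundant family member in every group, with a mean deposited FPKM (fragments scaled by transcript length and total) of 23.6 in WT, 98.4 in IDH2-FLT3 vehicle, 103 with AG-221, 107 in TET2-FLT3 vehicle and 22.1 with 5-Aza. In WT it was followed by Slfn9 (10.4 FPKM), Slfn5 (5.59 FPKM), Slfn3 (3.38 FPKM), Slfn1 (1.81 FPKM) and Slfn8 (0.890 FPKM). In TET2-FLT3 vehicle the order was Slfn2, Slfn5 (19.1 FPKM), Slfn9 (7.79 FPKM), Slfn1 (6.25 FPKM), Slfn3 (3.65 FPKM) and Slfn8 (1.37 FPKM). Slfn5 thus stood above Slfn9 in that group and below it in WT.

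**Figure D1:**
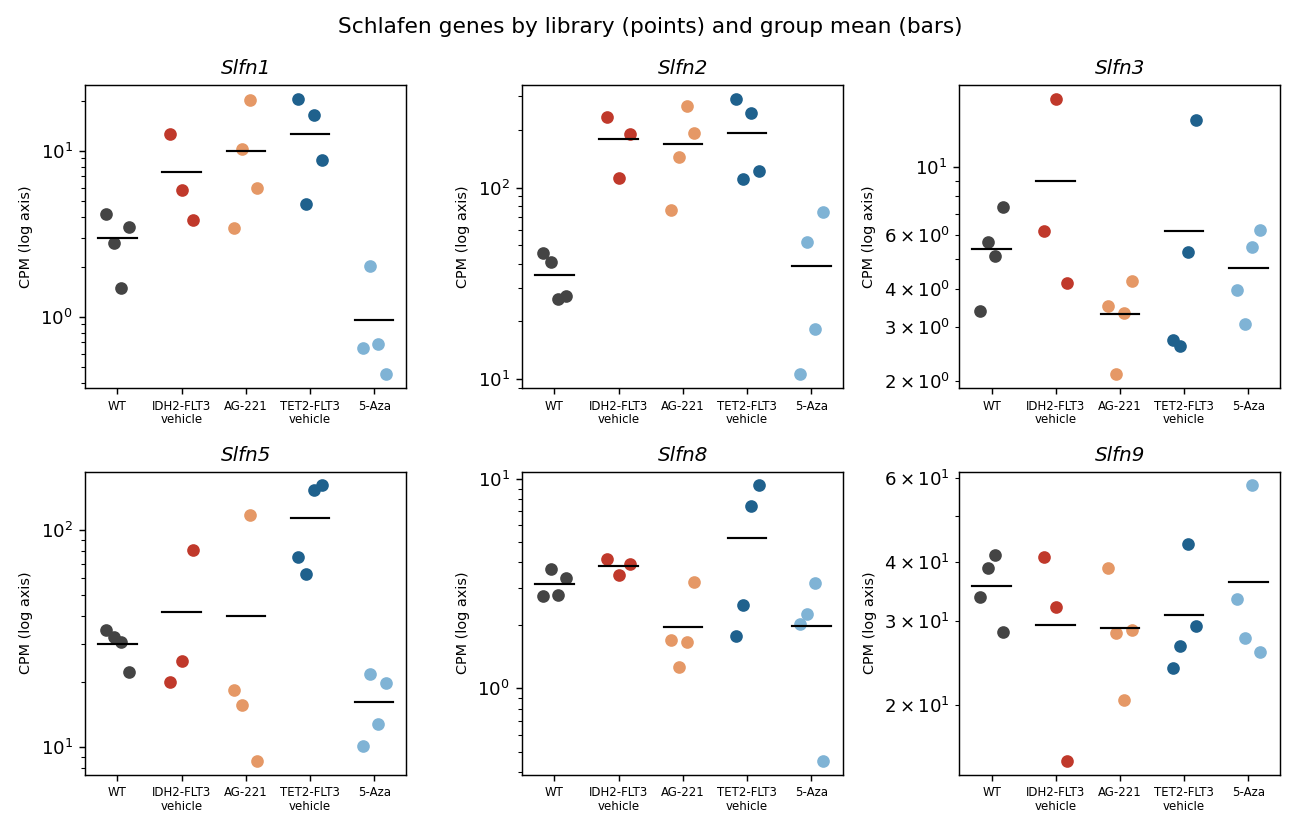
CPM (log axis) of the 6 tested Schlafen genes, with 1 point per library and a bar at each group's mean. Slfn2 lies above every WT library in both vehicle groups and with AG-221, Slfn1, Slfn2 and Slfn5 lie lower with 5-Aza than in every TET2-FLT3 vehicle library, and Slfn9 overlaps between all groups.

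Slfn2 encodes the short Schlafen protein that keeps T cells quiescent and shields transfer RNA from cleavage. Its levels in the WT libraries wt1 to wt4 were 45.3, 41.0, 26.3 and 27.2 CPM. IDH2-FLT3 vehicle gave 112 (V3-2), 234 (V3) and 190 CPM (V9), and TET2-FLT3 vehicle gave 111 (V19), 292 (V1), 123 (V5-2) and 247 CPM (V5). Every vehicle library of both leukemias was thus above every WT library. Slfn2 rose by 2.36 ± 0.53 in IDH2-FLT3 vehicle (edgeR adjusted p = 0.00438) and by 2.47 ± 0.51 in TET2-FLT3 vehicle (adjusted p = 0.00525), and both calls held whichever library was left out. The comparisons share the WT libraries. The leukemias themselves did not differ by the test in Slfn2 (-0.11 ± 0.52, adjusted p = 0.920).

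Slfn1, the founding member, is less abundant. The WT libraries gave 4.14, 2.79, 1.49 and 3.47 CPM, IDH2-FLT3 vehicle gave 5.77 (V3-2), 12.6 (V3) and 3.85 CPM (V9), and TET2-FLT3 vehicle gave 4.80 (V19), 20.6 (V1), 8.74 (V5-2) and 16.5 CPM (V5). The TET2-FLT3 vehicle libraries were all above WT, and IDH2-FLT3 vehicle overlapped with it. Slfn1 rose in TET2-FLT3 vehicle by 2.08 ± 0.60 (edgeR adjusted p = 0.0333), while in IDH2-FLT3 vehicle the difference was 1.32 ± 0.63 (adjusted p = 0.141). The call ended when V1 (adjusted p = 0.0884), V5 (0.0620), wt1 (0.0558), wt2 (0.0736), wt3 (0.106) or wt4 (0.0725) was left out. Whether the rise differs between the leukemias was tested directly and did not pass (-0.77 ± 0.63, adjusted p = 0.492).

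Slfn5 is a long, nuclear family member known as an interferon-induced regulator of transcription. WT libraries gave 34.5, 32.3, 30.5 and 22.2 CPM, and TET2-FLT3 vehicle gave 62.9 (V19), 75.3 (V1), 161 (V5-2) and 154 CPM (V5), all above WT. In IDH2-FLT3 vehicle, V3-2 and V3 were within or below the WT range at 25.0 and 19.9 CPM, and V9 was at 81.0 CPM. The difference from WT was 1.92 ± 0.63 in TET2-FLT3 vehicle (edgeR adjusted p = 0.0541) and 0.49 ± 0.65 in IDH2-FLT3 vehicle (adjusted p = 0.620), and neither passed. For TET2-FLT3 vehicle the adjusted p was under the threshold with DESeq2 (0.0143), with no expression filter (0.0106), with only the compared groups in the fit (0.00361) and without V19 (0.0428). Without V3-2 and V5-2 together that difference was 1.72 (edgeR adjusted p = 0.0828).

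Of the 6 tested members, 1 was called in IDH2-FLT3 vehicle against WT, where 20.5% of all tested accessions were called and 10.1% were called higher. In TET2-FLT3 vehicle against WT 2 of 6 were called, against 10.1% of all accessions and 4.43% called higher. The median log2 fold change of the 6 was 0.62 and 1.33 in these comparisons, against 0.02 and 0.07 over all accessions. IDH2-FLT3 vehicle against TET2-FLT3 vehicle gave 0 calls by edgeR and by DESeq2, with 1 gene, Slfn5, at an unadjusted p under 0.05 by each tool and 4.28% of all accessions called. The Slfn5 difference there was -1.44 ± 0.68 (adjusted p = 0.231), and -0.96 without V3-2 and V5-2.

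**Figure D2:**
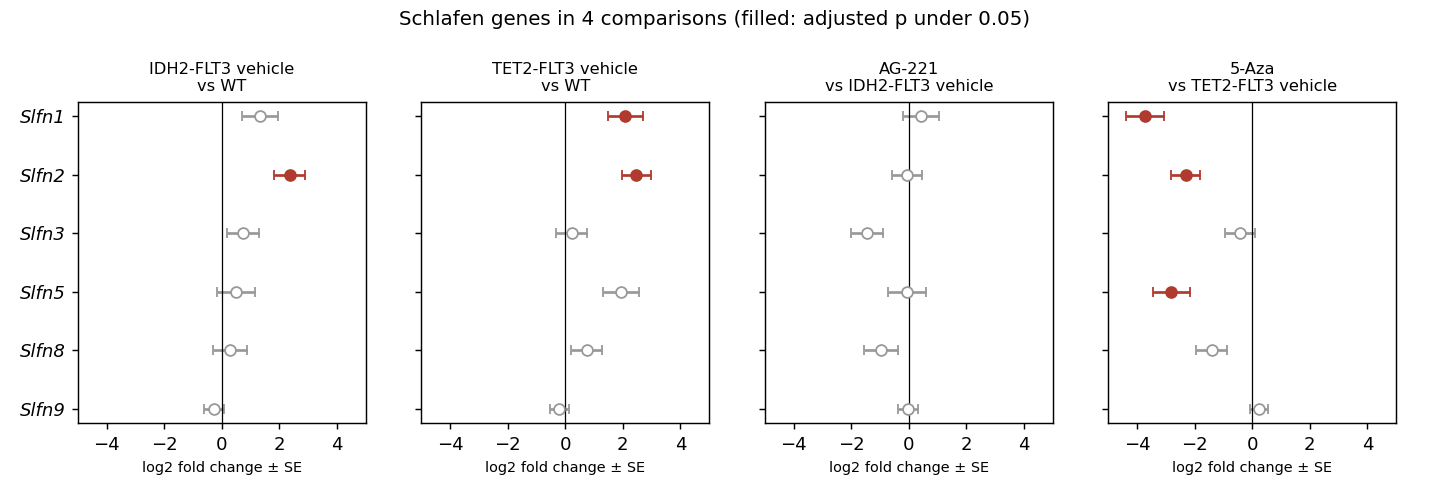
Log2 fold change ± standard error of the 6 tested Schlafen genes in 4 comparisons, with filled points where the edgeR adjusted p was under 0.05. Filled points are Slfn2 in IDH2-FLT3 vehicle against WT, Slfn1 and Slfn2 in TET2-FLT3 vehicle against WT, and Slfn1, Slfn2 and Slfn5 with 5-Aza against vehicle; AG-221 against vehicle has none.

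With 5-Aza, Slfn1, Slfn2 and Slfn5 fell relative to TET2-FLT3 vehicle. For each of them the 5-Aza and vehicle libraries did not overlap, a description given without the share over all accessions. Slfn1 gave 0.647 (AZ10), 2.02 (AZ11), 0.683 (AZ16) and 0.451 CPM (AZ17), a mean of 0.951 ± 0.721 CPM (SD, n = 4) against 12.6 ± 7.18 CPM in vehicle (n = 4). It fell by 3.71 ± 0.66 on the log2 scale (edgeR adjusted p = 0.00521), and the call held under every alternative and whichever library was left out. Its 5-Aza counts were low, 47 reads over the 4 libraries.

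Slfn2 gave 10.6 (AZ10), 51.9 (AZ11), 18.2 (AZ16) and 74.3 CPM (AZ17), which straddles the WT range. Against vehicle it fell by 2.32 ± 0.51 (edgeR adjusted p = 0.0190). The call ended with only the compared groups in the fit (adjusted p = 0.0741) and without AZ10 (0.0581), AZ16 (0.0896), V1 (0.0547) or V5 (0.0518). Slfn5 gave 10.1 (AZ10), 21.7 (AZ11), 12.8 (AZ16) and 19.8 CPM (AZ17), all below the lowest WT library. Against vehicle it fell by 2.82 ± 0.65 (adjusted p = 0.0258). That call ended without AZ10 (adjusted p = 0.0902), AZ11 (0.0537), AZ16 (0.109), AZ17 (0.0645), V5-2 (0.0522) or V5 (0.0642), and without V3-2 and V5-2 together (0.0546).

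The 3 calls among 6 tested members compare with 1.88% of all tested accessions called with 5-Aza against vehicle, and 1.45% called lower. The median of the 6 was -1.87, against -0.05 over all accessions. Because the family was chosen with earlier results of these data known, these contrasts are descriptions. Slfn8 read 2.02, 2.26, 3.19 and 0.451 CPM with 5-Aza and its difference of -1.41 ± 0.55 did not pass (edgeR adjusted p = 0.270). Slfn3 (-0.42 ± 0.53, adjusted p = 0.798) and Slfn9 (0.23 ± 0.32, adjusted p = 0.823) did not pass either.

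Set against WT, 5-Aza gave 0 called members by edgeR and by DESeq2, with Slfn1 at an unadjusted p under 0.05 by edgeR and 1.72% of all accessions called. Slfn2 was at 38.8 ± 29.7 CPM with 5-Aza and 35.0 ± 9.65 CPM in WT (n = 4 each; 0.15 ± 0.49, adjusted p = 0.905). Slfn1 differed from WT by -1.63 ± 0.63 (adjusted p = 0.199) and Slfn5 by -0.89 ± 0.62 (adjusted p = 0.480). Both passed when only the 5-Aza and WT libraries were fitted, with adjusted p = 0.0377 for Slfn1 and 0.0224 for Slfn5.

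In AG-221 against IDH2-FLT3 vehicle no member was called. EdgeR and DESeq2 each called 0 of 6, with Slfn3 at an unadjusted p under 0.05, where 9.68% of all accessions were called. Slfn2 gave 76.4 (AG1), 144 (AG12), 267 (AG13) and 193 CPM (AG8), which overlaps the vehicle libraries (-0.07 ± 0.52, adjusted p = 0.939). The 4 libraries were still above every WT library, and Slfn2 was the 1 member of 6 called in AG-221 against WT (2.28 ± 0.51, adjusted p = 0.0139), where 2.71% of all accessions were called and 1.04% were called higher. That call ended without AG13 (adjusted p = 0.0522), wt3 (0.0698) or wt4 (0.0673). Slfn1 gave 3.42 (AG1), 10.2 (AG12), 20.1 (AG13) and 5.93 CPM (AG8) and did not pass against vehicle (0.42 ± 0.63, adjusted p = 0.672) or WT (1.73 ± 0.60, adjusted p = 0.155).

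Slfn5 with AG-221 read 18.3 (AG1), 15.7 (AG12), 118 (AG13) and 8.62 CPM (AG8). Library AG13 was far above the other 3, which were below every WT library. Against vehicle the difference was -0.07 ± 0.65 (edgeR adjusted p = 0.955), and without AG13 it was -1.56 (adjusted p = 0.0633). Without the vehicle library V9, which was high in the same way, it was 0.84 (adjusted p = 0.408).

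Whether the drug responses differ was tested as AG-221 against its vehicle less 5-Aza against its vehicle. EdgeR called 0 of 6 members and DESeq2 called 1, Slfn1, where edgeR called 0.228% of all accessions. Slfn1, Slfn2 and Slfn5 had an unadjusted p under 0.05 by both tools. The differences were 4.13 ± 0.91 for Slfn1 (edgeR adjusted p = 0.0560), 2.24 ± 0.73 for Slfn2 (0.167) and 2.75 ± 0.92 for Slfn5 (0.181). The Slfn1 difference passed with DESeq2 (adjusted p = 5.29e-04), with no filter (0.00662), with a stricter filter (0.0458) and with limma on log2(FPKM + 0.1) (0.0369). It also passed without AZ11 (0.0481), V19 (0.0488), V5-2 (0.0374), AG1 (0.0330) or V9 (0.0247), and the Slfn5 difference passed without V9 (0.0297). Without V3-2 and V5-2 together the Slfn1 difference did not pass (edgeR adjusted p = 0.137).

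Slfn3, an intermediate-length member studied in T cells and gut epithelium, showed no call. WT libraries gave 3.37, 5.66, 5.12 and 7.41 CPM. Vehicle library V3-2 read 16.7 CPM against 6.16 (V3) and 4.17 CPM (V9), and V5-2 read 14.2 CPM against 2.59 (V19), 2.73 (V1) and 5.27 CPM (V5). Those 2 libraries were above all 17 others. The difference from WT was 0.74 ± 0.56 for IDH2-FLT3 vehicle (edgeR adjusted p = 0.359) and 0.22 ± 0.52 for TET2-FLT3 vehicle (adjusted p = 0.822), and without V3-2 and V5-2 it was -0.05 and -0.58. AG-221 read 3.52 (AG1), 2.10 (AG12), 3.32 (AG13) and 4.23 CPM (AG8), and the difference from vehicle was -1.45 ± 0.57 (adjusted p = 0.0972). It passed without V9 (adjusted p = 0.0410) and was -0.67 without V3-2 and V5-2.

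Slfn8 and Slfn9 are near relatives of the long kind. Slfn8 was low everywhere, at 3.16 ± 0.457 CPM in WT, 3.84 ± 0.344 in IDH2-FLT3 vehicle, 1.97 ± 0.868 with AG-221, 5.25 ± 3.69 in TET2-FLT3 vehicle and 1.98 ± 1.14 with 5-Aza. Within TET2-FLT3 vehicle, V5-2 (9.31 CPM) and V5 (7.43 CPM) were above V19 (2.50 CPM) and V1 (1.77 CPM). All AG-221 libraries were below all IDH2-FLT3 vehicle libraries, yet the difference of -0.96 ± 0.59 did not pass (edgeR adjusted p = 0.275).

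Slfn9 was the steadiest member. Its means were 35.6 ± 5.72 CPM in WT, 29.4 ± 13.04 in IDH2-FLT3 vehicle, 29.1 ± 7.51 with AG-221, 30.9 ± 8.84 in TET2-FLT3 vehicle and 36.3 ± 14.8 with 5-Aza, and all groups overlapped. Its log2 fold changes between groups ran from -0.29 to 0.23, with standard errors of 0.32 to 0.35, and the lowest adjusted p was 0.599. Between Slfn5 and Slfn8 on the chromosome, it thus showed no call in the comparison in which Slfn5 fell with 5-Aza.

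Slfn4, a myeloid member that macrophages induce, had 12 reads in all. V3-2 held 7 and V3 held 4, both at 0.337 CPM, and AG12 held 1. No read was found in the WT, TET2-FLT3 vehicle or 5-Aza libraries, where 0 reads allow up to 0.248, 0.409 and 0.271 CPM in the library with the smallest scaled total (3 counts, counting error only). Slfn4 was the only one of the 7 whose reads came from leukemic IDH2-FLT3 mice alone, a description of 3 libraries with no test. Of the other family members, Slfn14 had 20 reads, 17 of them in AG13, Slfn10-ps had 11 and Slfnl1 had 9, and none was tested. Slfn4 and Slfn8 are among 5140 genes with several accessions in the table, of whose accessions 61.6% had 0 reads in every library against 18.7% for genes with 1 accession. Their second accessions were among those at 0, and the part of counting in their low levels was not tested. Of all stretches of 50 bases in the GENCODE transcripts, 14.6% of Slfn8, 16.0% of Slfn3 and 11.3% of Slfn4 were shared with another gene. The shares were 11.9% for Slfn9, 4.27% for Slfn2 and 0.606% for Slfn1. They do not give the part of the counts in doubt, which also depends on the reads of the other gene. Slfn8, with 898 reads, shares stretches with Slfn9, which had 8077 reads. Slfn4, with 12 reads, shares stretches with Slfn2, which had 28774 reads. How many reads were affected was not tested. For Slfn5 the share was 11.1%, mostly with the antisense gene Slfn5os, which had 7 reads, and without a stated strand setting the reads of both cannot be told apart.

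**Figure D3:**
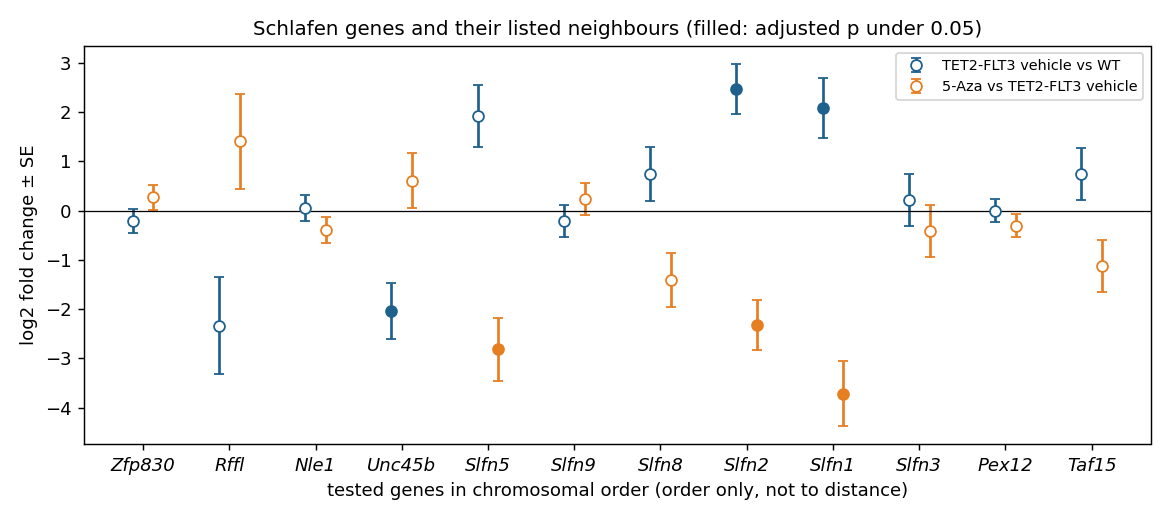
Log2 fold change ± standard error (vertical axis) of the Schlafen genes and the tested genes of the neighbour list, in chromosomal order. TET2-FLT3 vehicle against WT and 5-Aza against vehicle are shown, with filled points where the edgeR adjusted p was under 0.05. Slfn5, Slfn2 and Slfn1 lie at positive values in the first and negative ones in the second, with Slfn9 near 0 between them; of the neighbours only Unc45b is filled, in the first comparison.

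Among the listed neighbours of the Schlafen genes that were tested, none was called with 5-Aza, where 1.88% of all accessions were called. At that share, 0 calls among 6 genes is no result about the locus. AI662270, AA465934 and AI450353, noncoding genes of the locus, passed the filter but were not on the list. Of 14 listed neighbours 6 were tested, and edgeR and DESeq2 each called 0 of them in 5-Aza against TET2-FLT3 vehicle, with 1, Taf15, at an unadjusted edgeR p under 0.05 and a median of -0.02. Unc45b, a myosin chaperone next to Slfn5, went the other way from Slfn2 in the leukemias. It was at 12.7 ± 3.77 CPM in WT (n = 4), 0.262 ± 0.336 in IDH2-FLT3 vehicle (n = 3) and 3.09 ± 2.26 in TET2-FLT3 vehicle (n = 4). It fell by 5.59 ± 0.80 in IDH2-FLT3 vehicle (edgeR adjusted p = 1.54e-04). In TET2-FLT3 vehicle it fell by 2.04 ± 0.57 (adjusted p = 0.0294), a call that ended when any of V1, V5-2, V5, wt1, wt3 and wt4 was left out (adjusted p from 0.0547 to 0.0811).

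Interferon-induced genes were counted beside the family. Of 50 listed genes 43 were tested, and in IDH2-FLT3 vehicle against WT 16 fell and 0 rose (median -0.61), where 10.4% of all accessions were called lower, the comparison in which Slfn2 rose. In TET2-FLT3 vehicle against WT 10 rose and 0 fell (median 0.83), where 4.43% of all accessions were called higher. With 5-Aza 9 fell and 0 rose (median -0.79), where 1.45% of all accessions were called lower. Those are the directions that Slfn1 and Slfn2 took. With AG-221 against vehicle 8 rose and 0 fell (median 0.28; 4.39% of all accessions were called higher), where no Schlafen gene was called. Ifi44l, an interferon-induced gene of antiviral responses, was at 54.0 ± 28.5 CPM in WT, 0.128 ± 0.182 in IDH2-FLT3 vehicle, 148 ± 28.3 in TET2-FLT3 vehicle and 22.9 ± 6.65 with 5-Aza (n = 4, 3, 4 and 4). It fell by 2.69 ± 0.43 with 5-Aza (edgeR adjusted p = 0.00269). Cxcl10, an interferon-induced chemokine, rose in TET2-FLT3 vehicle by 2.71 ± 0.48 (adjusted p = 0.00158). Of 22 listed interferon receptor and signalling genes 15 were tested, and edgeR called 0 with 5-Aza (median -0.37), with 6 at an unadjusted p under 0.05; DESeq2 was run on 7 of them and called 2. In IDH2-FLT3 vehicle against WT, where 20.5% of all accessions were called, 1 of the 15 rose and 3 fell, namely Irf1, Irf2 and Jak1. Irf2 and Jak1 are named because the count is small. The 1 that rose was Ifngr1, a receptor subunit for interferon gamma (1.30 ± 0.28, edgeR adjusted p = 0.00335). Irf1, an interferon-induced transcription factor, fell by 2.73 ± 0.83 (adjusted p = 0.0254), a call that ended with no filter (0.0527), with counts summed over accessions (0.369), without V3-2 (0.119), V3 (0.104), wt3 (0.0538) or wt4 (0.0544), and without V3-2 and V5-2 together (0.103). Ifngr1 did not take the course of Slfn2 in the other comparisons. It differed by 0.09 ± 0.26 in TET2-FLT3 vehicle against WT (adjusted p = 0.855), where Slfn2 rose, and fell by 1.28 ± 0.28 with AG-221 against vehicle (adjusted p = 0.0139), where Slfn2 was not called. The latter call ended without V3 (0.0989) and with only the compared groups in the fit (0.0791).

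Markers of mature myeloid cells were summed beside the members. Of all accessions, 10.1% were called higher and 10.4% lower in IDH2-FLT3 vehicle against WT. In TET2-FLT3 vehicle against WT 10.1% were called and 4.43% were called higher. With 5-Aza against vehicle 1.88% were called and 1.45% were called lower. With AG-221 against vehicle 9.68% were called in either direction. The 12 dendritic cell markers summed to 1239 to 1771 CPM in WT, 1870 to 10740 in IDH2-FLT3 vehicle, 885.4 to 9539 after AG-221, 3298 to 10360 in the TET2-FLT3 vehicle libraries and 540.3 to 1137 after 5-Aza. Of the 11 tested, 6 rose and 0 fell in TET2-FLT3 vehicle, 5 rose and 3 fell in IDH2-FLT3 vehicle, and 6 fell and 0 rose with 5-Aza, while Clec9a, a defining marker, was at 0 in every library. The list includes Flt3, whose allele differs between WT and all leukemic groups. Flt3 was at 408 ± 110 CPM in WT, 155 ± 101 in IDH2-FLT3 vehicle, 308 ± 84.4 with AG-221, 387 ± 195 in TET2-FLT3 vehicle and 229 ± 93.9 with 5-Aza. It was among the 3 that fell in IDH2-FLT3 vehicle (-1.40 ± 0.46, edgeR adjusted p = 0.0356). No sum without Flt3 was computed. The 10 monocyte markers summed to 573.8 to 1312 CPM in WT, 2426 to 10290 in IDH2-FLT3 vehicle, 985.6 to 3431 after AG-221, 1342 to 2547 in the TET2-FLT3 vehicle libraries and 457.8 to 955.9 after 5-Aza. Of the 9 tested, 8 rose in IDH2-FLT3 vehicle and 3 in TET2-FLT3 vehicle, and 2 fell with 5-Aza. With AG-221 against vehicle 5 of the 9 fell (median -2.22), where no Schlafen gene was called and Slfn2 differed by -0.07. The 10 neutrophil markers summed to 1626 to 4111 CPM in WT, 887.6 to 25440 in IDH2-FLT3 vehicle, 1404 to 23830 after AG-221, 211.9 to 2300 in the TET2-FLT3 vehicle libraries and 524 to 1770 after 5-Aza. Of the 9 tested, 4 rose in IDH2-FLT3 vehicle. EdgeR called 0 of 9 in TET2-FLT3 vehicle against WT (median -1.21, 2 at an unadjusted p under 0.05) and 0 with 5-Aza against vehicle (median 0.06, 0 at an unadjusted p under 0.05), the comparisons in which Slfn1 and Slfn2 rose and fell. The part of these cell types in the Schlafen results was not tested.

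Across the 19 libraries, log2 CPM of Slfn5 and of the summed dendritic cell markers, Flt3 among them, had a Pearson r of 0.887. After the group means were taken out, r was 0.863. AG13, V9, V5 and V1 had the highest marker sums, at 9539, 10744, 10356 and 7958 CPM, and AG13 and V9 were also the highest Slfn5 libraries of their groups. In TET2-FLT3 vehicle the order differed, since V5-2, with a lower sum of 7009 CPM, had the highest Slfn5 level (161 CPM) and V1 the second lowest (75.3 CPM). For Slfn2 the values were 0.789 and 0.628 with the dendritic cell markers and 0.812 and 0.580 with the monocyte markers. Slfn1 gave 0.757 and 0.434 with the dendritic cell markers and 0.750 and 0.705 with the monocyte markers. Slfn9 gave -0.491 and -0.542 with the dendritic cell markers. Slfn3 had its largest value with T and NK cell markers, at -0.696 and -0.770. V5-2 and V3-2, the libraries highest for Slfn3, had the lowest sums of these markers, at 426 and 503 CPM. No value without them was computed. Slfn8 gave -0.710 and -0.602 with the same markers. The sum of the T and NK cell markers did not always follow the listed genes. With 5-Aza it was 1990 to 3481 CPM, against 865.2 to 1337 CPM in WT. In that comparison the 12 tested genes had a median log2 fold change of -2.80. Of them 1 rose and 2 fell, where 1.72% of all accessions were called. The values for Slfn3 and Slfn8 thus describe the sum and not each listed gene. These are descriptions over 19 points that share groups, composition and total counts.

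**Figure D4:**
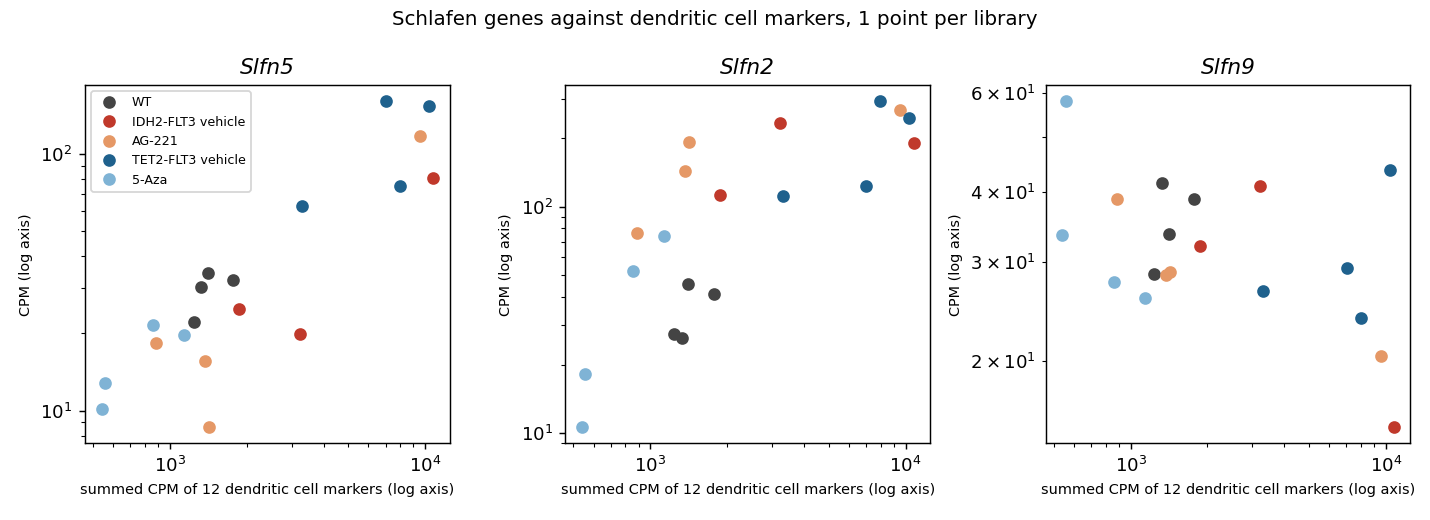
CPM of Slfn5, Slfn2 and Slfn9 (vertical, log axes) against the summed CPM of 12 dendritic cell markers (horizontal, log axes), with 1 point per library coloured by group. Slfn5 is high where the marker sum is high, including AG13 among the AG-221 libraries at 118 CPM, and Slfn9 shows no such rise.

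Among the members themselves, Slfn1 and Slfn2 were the most alike over the 19 libraries, with a Pearson r of 0.827, and 0.544 within groups. Slfn1 and Slfn5 had 0.577 and 0.291, and Slfn2 and Slfn9 had -0.454 and -0.363. Of 11026 genes searched, those most like Slfn2 were Ccl6 (0.929), a myeloid chemokine, Tlr13 (0.903), a sensor of bacterial RNA, and Ccr2 (0.897), the chemokine receptor of inflammatory monocytes. For Slfn1 they were Cd209a (0.908), a lectin of dendritic cells, Ehf (0.888) and Gprc5c (0.859). Those most like Slfn5 were Ffar4 (0.890), Rtl8c (0.890) and Cd300c (0.876). Slfn3 was nearest to Sntb1 (0.873), Srsf4 (0.858) and Gtf3a (0.853), and Slfn8 to Mat2b (0.856), Sppl2b (0.849) and Cdc42bpb (0.830). For Slfn9 the highest values were lower, with Scamp1 (0.648), Csgalnact1 (0.647) and Klhl15 (0.633).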

How the data were processed

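Per the submitters' processing notes, reads were aligned to mm9 with STAR 2.4.0f1 and counted with featureCounts of Subread 1.4.5-p1; strand settings and the treatment of reads shared by genes are not given in the sources used here. Libraries were made from polyA RNA with the SMARTer Ultra Low Input kit, per the labels' protocols. Raw counts for each RefSeq accession make up the deposited count file, and the authors' FPKM table holds FPKM per accession. Lengths derived from the counts and FPKM agreed across libraries to within 6.26e-05% for each accession. That shows a constant length per accession and is no independent check of the FPKM values. Column headers were matched to sample titles to give each library its group.

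Accessions were named from RefSeq (33481) and GENCODE (192); 189 without a name held 3.466% of counts. Counts were fitted with edgeR 4.0.16 (R 4.3.3): filterByExpr, TMM factors, 5 group means over 19 libraries, quasi-likelihood tests, and adjustment over 11830 accessions. The fit had 14 residual degrees of freedom and a biological coefficient of variation of 42.95%. CPM used library totals times TMM factors. Alternatives tried were no filter, a minimum of 5 CPM in 3 libraries (stricter filter), RLE factors, compared groups alone, DESeq2 1.42.0, limma 3.58.1 on log2 FPKM plus 1 or 0.1, counts summed over accessions, each library left out, and V3-2 and V5-2 left out. No 2 libraries of the same group were copies (lowest chi-square per gene 15.93), and pairs across groups were not compared. The test was checked on simulated data. Genes named were the members, called genes of the lists with the smallest p, and the 3 tested genes most correlated with each member; of those, a smaller set is printed. Members and lists were chosen with earlier results of these data known. Sequences are from RefSeq (GRCm38.p6).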

Additional observations from a re-analysis of the deposited data

Results flagged for a closer look

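Of 24 combinations of a tested Schlafen gene and a group of 4 libraries, 2 had a library set apart from the other 3 by Dixon's test, which flags about 1 in 20 groups by chance. Slfn1 in 5-Aza library AZ11 was at 2.02 CPM, against 0.451 to 0.683 CPM in the other 3. Slfn5 in AG-221 library AG13 was at 118 CPM, against 8.62 to 18.3 CPM in the other 3, and AG13 also had the highest dendritic cell marker sum of its group.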

How the results depend on the processing

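Over all alternatives, 820 values for the 6 tested Schlafen genes were recomputed. No call changed direction, 782 values stayed on their side of the threshold, 21 calls were lost and 17 were gained, and 51 values that were never called changed sign. With each library left out in turn, the number of members called ran from 1 to 3 in TET2-FLT3 vehicle against WT, 0 to 1 in AG-221 against vehicle, 1 to 3 in 5-Aza against vehicle, 0 to 1 in AG-221 against WT and 0 to 2 in the difference of drug responses. It stayed at 1 in IDH2-FLT3 vehicle against WT and at 0 in 5-Aza against WT and between the vehicle groups. With the compared groups alone, 5-Aza against WT had 2 members called, and the difference of drug responses had 1 called with no filter, a stricter filter, DESeq2 or limma on log2(FPKM + 0.1). The causes were not tested. No paired analysis was possible because the leukemic libraries' columns carry no replicate numbers of the labels. Low counts limit Slfn1 with 5-Aza (47 reads), Slfn8 (898 reads in all) and Slfn4 (12 reads).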
